A study of Mus musculus with 72 samples.

Results

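In an array study of chemically induced colitis in mice, 9 genes of the 18193 on the arrays were chosen by their array levels, for the size of the difference between colitic mice given a control IgG and colitic mice given nothing. Akr1c21, Gbp8, Lgals2, Abcg5 and Pax8 were higher with control IgG, and Slc13a3, Tnfsf11, Prok2 and Ifitm6 were lower. Each gene was read from the probe set with the highest mean over the 72 arrays among the probe sets annotated to that gene alone.

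Colon RNA was measured in wild-type Balb/c mice, 1 array per mouse. Colitis was caused by rectal TNBS, a hapten given in ethanol, at a dose of 70 µg for each g of body weight, and mice were killed on day 4. Before TNBS, 15 mice received the control IgG, an IgG2a antibody against human CD20, at 10 mg/kg. A further 14 mice received anti-TWEAK, the antibody mP2D10 against the TNF family cytokine TWEAK, at 10 mg/kg, and 15 received the combination of anti-TWEAK at 10 mg/kg with TNFR-Ig at 0.3 mg/kg. TNFR-Ig alone, a soluble TNF receptor joined to the constant part of an immunoglobulin, went to 12 mice at 0.3 mg/kg, a dose the study describes as much less effective than a higher one. TNBS without treatment was given to 8 mice, and 8 naive mice had no colitis. Mice fall into 2 experiments numbered 7 and 10 in the labels, with 34 and 38 arrays, and naive mice belong to experiment 10 alone. Age and sex are not given in the sources used here. Control IgG recognises a human protein, so it serves as a control for the antibody and not for the blocking of TWEAK. TNFR-Ig mice received no added IgG, but their drug carries an immunoglobulin tail.

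Array medians lay between 4.6 and 4.77 log2 units, and the mean log2 difference between the 3 prime and 5 prime probe sets of Actb, which widens as RNA degrades, was 1.08 with control IgG, 1.10 with anti-TWEAK, 1.14 with the combination, 1.10 with TNFR-Ig, 1.06 in untreated TNBS mice and 1.11 in naive mice. The number of arrays limits the precision of every value. The first naive array has a treatment label at odds with its title and was kept as naive. The array names of combination mice 7 and 8 of experiment 7 carry the run prefix of experiment 10. Prok2, Ifitm6 and Gbp8 kept their calls in the combination comparison without either kind of array.

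IgG binds its antigen with one end and, with the other, Fc receptors on neutrophils, monocytes and macrophages, which can activate or restrain those cells. In TNBS colitis these myeloid cells enter the colon wall in large numbers, and their genes make up much of the rise in inflammatory transcripts. The 9 genes come from unrelated families. Their products include a steroid-metabolising enzyme, an interferon-inducible GTPase, a lectin, a sterol pump, a transcription factor of thyroid and kidney, a dicarboxylate carrier, a bone and lymphoid cytokine, a chemokine-like peptide and an interferon-induced membrane protein.

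Since control IgG and untreated TNBS mice chose the genes, their difference is given as a description without a test. All values are log2 array levels, with a floor of 2.077 that 37.5% of the table's values approach within 0.1, and differences are log2 differences from a linear model with a term for the experiment. Akr1c21 differed by 2.06 ± 0.42 (SE) between control IgG and untreated TNBS mice. Gbp8 differed by 1.46 ± 0.30, Lgals2 by 1.41 ± 0.41, Abcg5 by 1.27 ± 0.42 and Pax8 by 1.22 ± 0.22. On the other side, Slc13a3 stood at -3.59 ± 0.89, Tnfsf11 at -2.65 ± 0.55, Ifitm6 at -2.52 ± 0.77 and Prok2 at -2.45 ± 0.76. Over all 12534 genes tested, 10.3% passed an adjusted p under 0.05 in that comparison, 4.82% higher and 5.52% lower, and nothing about the 9 genes is read from this share. The size varied between the experiments. In experiment 10 alone the differences were -4.58 for Slc13a3, -3.60 for Prok2, -3.16 for Ifitm6, -2.45 for Tnfsf11, 2.15 for Lgals2, 1.98 for Gbp8, 1.86 for Akr1c21, 1.38 for Pax8 and 1.07 for Abcg5. In experiment 7 alone they were -2.68 for Slc13a3, -1.37 for Prok2, -1.91 for Ifitm6, -2.80 for Tnfsf11, 0.69 for Lgals2, 0.96 for Gbp8, 2.22 for Akr1c21, 1.04 for Pax8 and 1.43 for Abcg5.

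The 3 groups given IgG (control IgG, anti-TWEAK and combination) were also set against the TNBS groups given none (TNFR-Ig and untreated). The differences were smaller than for control IgG against untreated mice on the higher side, and for Slc13a3 and Tnfsf11. Akr1c21 differed by 1.03, Gbp8 by 1.02, Abcg5 by 0.82, Lgals2 by 0.67 and Pax8 by 0.41. Ifitm6 stood at -2.53, Prok2 at -2.50, Slc13a3 at -2.06 and Tnfsf11 at -1.86. This comparison holds the mice that chose the genes and is also a description.

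In the comparisons of anti-TWEAK and combination mice with TNFR-Ig mice, none of which chose the genes, Prok2 and Ifitm6 gave the largest differences of the 9 when both groups were averaged. They varied together from mouse to mouse. Prok2 encodes prokineticin 2, also called Bv8, a secreted peptide made by neutrophils and other myeloid cells that attracts leukocytes and promotes vessel growth. Ifitm6 encodes a member of the interferon-induced transmembrane family found in mouse myeloid cells. Their promoters are shown because of this joint behaviour, as the 250 bases before the start site from RefSeq on build GRCm38.p6. The Prok2 stretch is chr6:99726393-99726642 and the Ifitm6 stretch is chr7:141016893-141017142, both on the minus strand and written 5′ to 3′. Capitals mark matches to a TATA box (TATAAA on either strand), the element at which the basal transcription machinery assembles.
Prok2: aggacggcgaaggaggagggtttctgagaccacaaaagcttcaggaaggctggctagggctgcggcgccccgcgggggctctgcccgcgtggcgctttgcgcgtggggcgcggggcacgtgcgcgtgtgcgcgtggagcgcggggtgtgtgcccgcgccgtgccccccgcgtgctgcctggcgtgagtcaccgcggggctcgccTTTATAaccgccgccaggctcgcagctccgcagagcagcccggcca
Ifitm6: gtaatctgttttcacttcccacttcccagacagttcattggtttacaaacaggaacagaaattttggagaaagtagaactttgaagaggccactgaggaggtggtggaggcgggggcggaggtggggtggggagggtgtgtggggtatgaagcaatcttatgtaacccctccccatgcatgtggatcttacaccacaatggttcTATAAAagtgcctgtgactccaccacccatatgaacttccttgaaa

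Both promoters hold TATAAA on one of the strands, with 40 bases between the match and the start site, a sequence found in 12.4% of 32851 mouse promoters of that length. Of the 9 genes, 8 have a promoter entry and 4 have a match on either strand. The other matches were TATAAA in Abcg5 and Tnfsf11. Gbp8 has no entry in the promoter table. A match describes letters only.

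Prok2 levels spanned from the floor to high values inside the antibody groups. Its lowest, median and highest levels were 2.08, 4.66 and 8.24 with control IgG, 2.08, 5.47 and 8.78 with anti-TWEAK, and 2.08, 2.08 and 6.04 with the combination. They were 2.28, 6.82 and 8.41 with TNFR-Ig and 4.28, 7.16 and 9.38 in untreated TNBS mice. Prok2 lay at the floor in 3 of 15 control IgG mice, 4 of 14 anti-TWEAK mice and 8 of 15 combination mice, against 0 of 12 TNFR-Ig mice and 0 of 8 untreated mice. All 8 naive mice were at the floor. By mean, only control IgG over combination was a step between neighbours larger than the pooled SD. The groups overlap. The control IgG and untreated counts belong to the mice that chose Prok2 and are a description.

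Ifitm6 followed the same order with no array at the floor, although the lowest combination value lay inside the naive range. Its lowest, median and highest levels were 4.30, 7.85 and 10.78 with control IgG, 3.47, 8.95 and 11.23 with anti-TWEAK, and 2.45, 4.88 and 8.88 with the combination. They were 6.77, 9.31 and 10.21 with TNFR-Ig, 8.60, 10.03 and 12.21 in untreated TNBS mice, and 2.27, 2.66 and 3.12 in naive mice. The combination mice spread widely, and their highest lay below the TNFR-Ig median. By mean, control IgG exceeded the combination, and the combination exceeded naive mice, by more than the pooled SD of each pair.

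**Figure D1:**
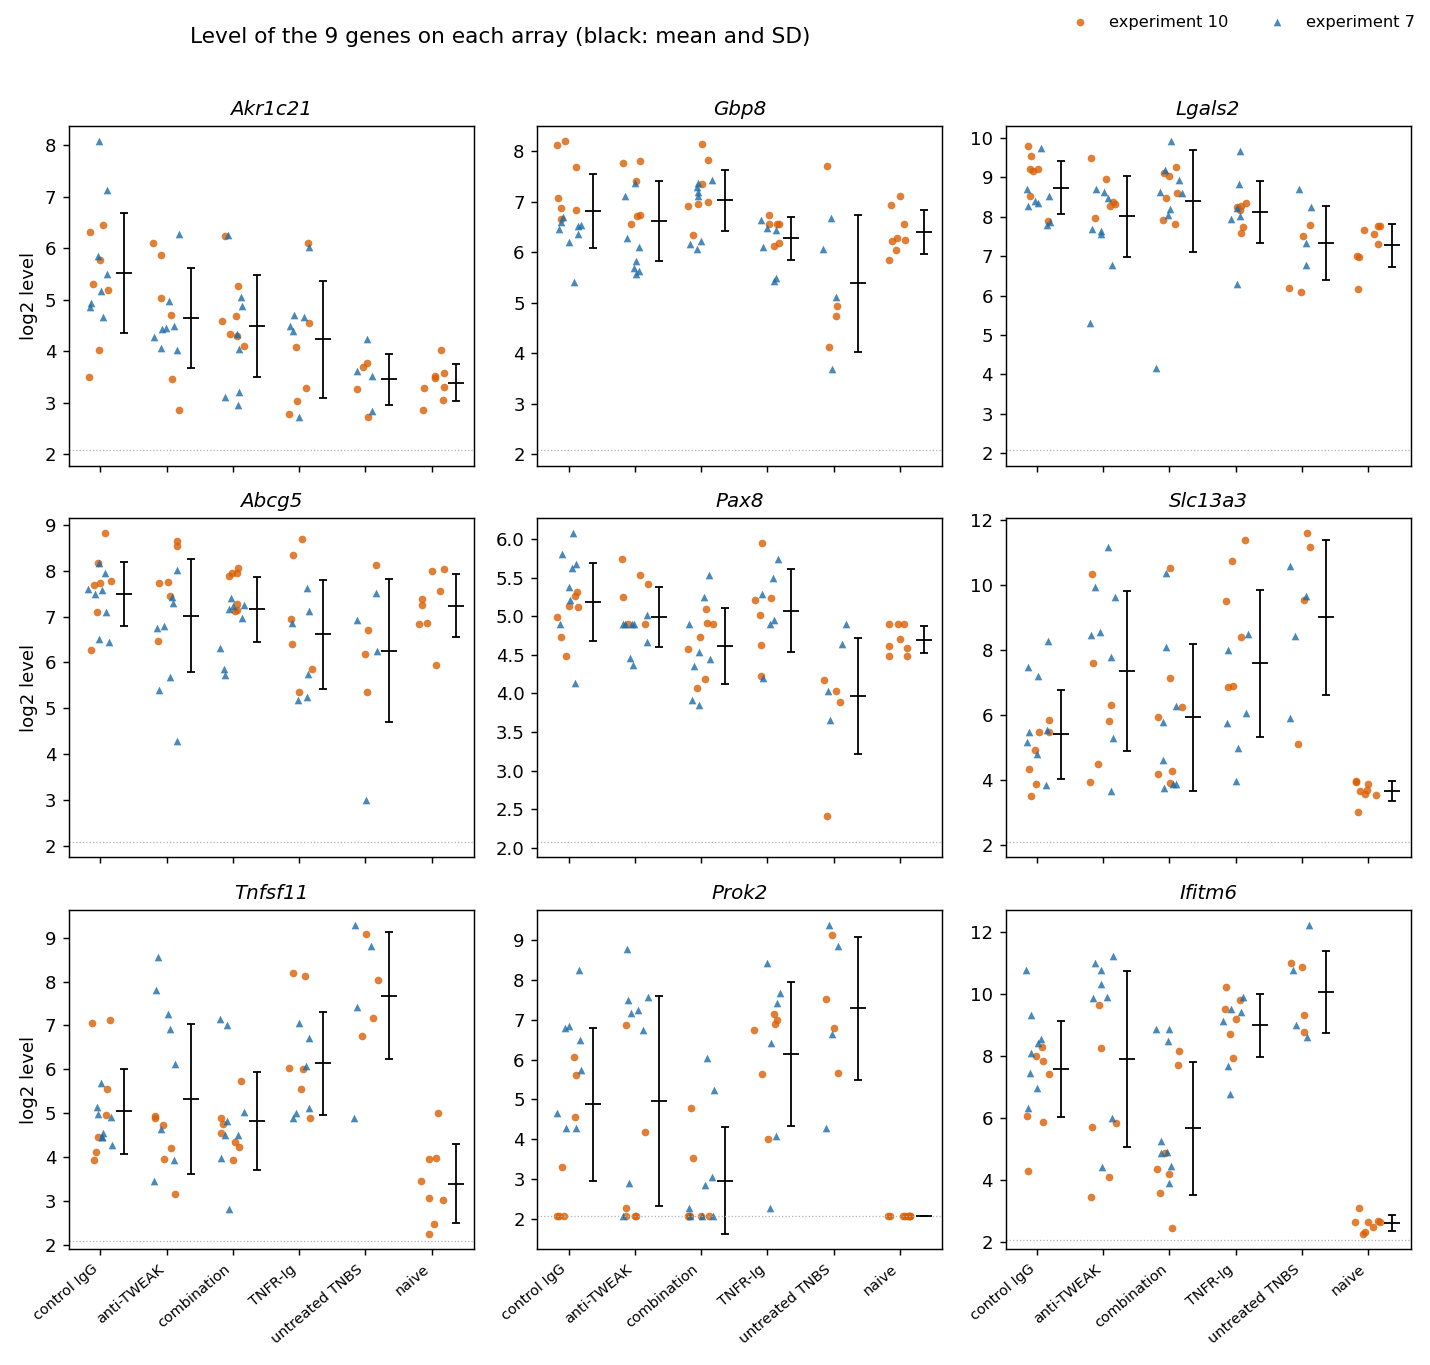
Log2 array level of each of the 9 genes on every array (vertical axis, log2 units) by group (horizontal axis), with orange circles for experiment 10, blue triangles for experiment 7, black lines for the mean and SD, and a dotted line at the floor of 2.077. Prok2 reaches the floor in 8 of 15 combination mice and in 0 of 12 TNFR-Ig mice, and the untreated TNBS mice are the highest group on average for Slc13a3, Tnfsf11, Prok2 and Ifitm6.

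The test of whether these genes moved with antibody used the 49 arrays of groups that played no part in choosing them: anti-TWEAK, combination, TNFR-Ig and naive. The antibody in these groups is anti-TWEAK, so an effect of IgG and an effect of blocking TWEAK cannot be told apart here. Anti-TWEAK mice also lacked TNFR-Ig, so for them the comparison differs in the TNF receptor drug as well as in the antibody. With anti-TWEAK and combination mice averaged and set against TNFR-Ig mice, 0 of the 9 genes passed (limma, Benjamini-Hochberg over 12534 genes), beside 0.016% of all genes, which is 2 genes called and 1621 with an unadjusted p under 0.05. Prok2 differed by -2.24 ± 0.60 (SE, adjusted p = 0.0976, limma) and Ifitm6 by -2.27 ± 0.65 (adjusted p = 0.1154, limma). Tnfsf11 stood at -1.09 ± 0.44 and Slc13a3 at -0.93 ± 0.73. Their adjusted p-values in limma were 0.2531 and 0.6612. Gbp8 differed by 0.58 ± 0.19 (adjusted p = 0.1516, limma). Abcg5 stood at 0.52 ± 0.31, Akr1c21 at 0.34 ± 0.33 and Lgals2 at 0.11 ± 0.34. Pax8 was the exception to the direction seen with control IgG, at -0.26 ± 0.15.

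With the combination set against TNFR-Ig alone, Prok2, Ifitm6 and Gbp8 passed the test, 3 of the 9 genes beside 5.99% of all genes (1.82% higher, 4.17% lower). Both arms received TNFR-Ig at the same dose, so they differ by the anti-TWEAK antibody. Prok2 fell by 3.22 on the log2 scale, a 9.32-fold difference (SE 0.67, adjusted p = 0.007006, limma). Since 8 of 15 combination mice were at the floor, the Prok2 difference is measured partly against it. Another Prok2 probe set, with a mean level near the floor, gave -0.0146 in this comparison, and the remaining Prok2 probe set lay at the floor. Probe sets so close to the floor cannot show whether the fall recurs, so the Prok2 result rests on a single probe set. Ifitm6 fell by 3.36, a 10.2-fold difference (SE 0.73, adjusted p = 0.007855, limma). Gbp8 rose by 0.77, a 1.71-fold difference (SE 0.21, adjusted p = 0.02369, limma). The Gbp8 call was lost with all 72 arrays in the fit (adjusted p = 0.06132, limma) and without the experiment term (adjusted p = 0.05082, limma). None of these 3 genes passed in experiment 7 alone. In experiment 10 alone Prok2 and Ifitm6 passed and Gbp8 did not, beside 6.41% of all genes.

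The other 6 genes did not pass in that comparison, although Tnfsf11 passed in experiment 10 alone (adjusted p = 0.02574, limma), where 6.41% of all genes did. Both Tnfsf11 and Pax8 passed with array weights and in 1 and 3 of 41 fits with 1 array left out. Tnfsf11 stood at -1.34 (95% interval -2.33 to -0.35, adjusted p = 0.0877, limma) and Slc13a3 at -1.65 (interval -3.32 to 0.011). Pax8 was at -0.45 (interval -0.78 to -0.11, adjusted p = 0.09297, limma), against 1.22 for control IgG over untreated mice. Abcg5 was at 0.57 (interval -0.13 to 1.27), Lgals2 at 0.29 (interval -0.48 to 1.06) and Akr1c21 at 0.26 (interval -0.48 to 1.00).

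**Figure D2:**
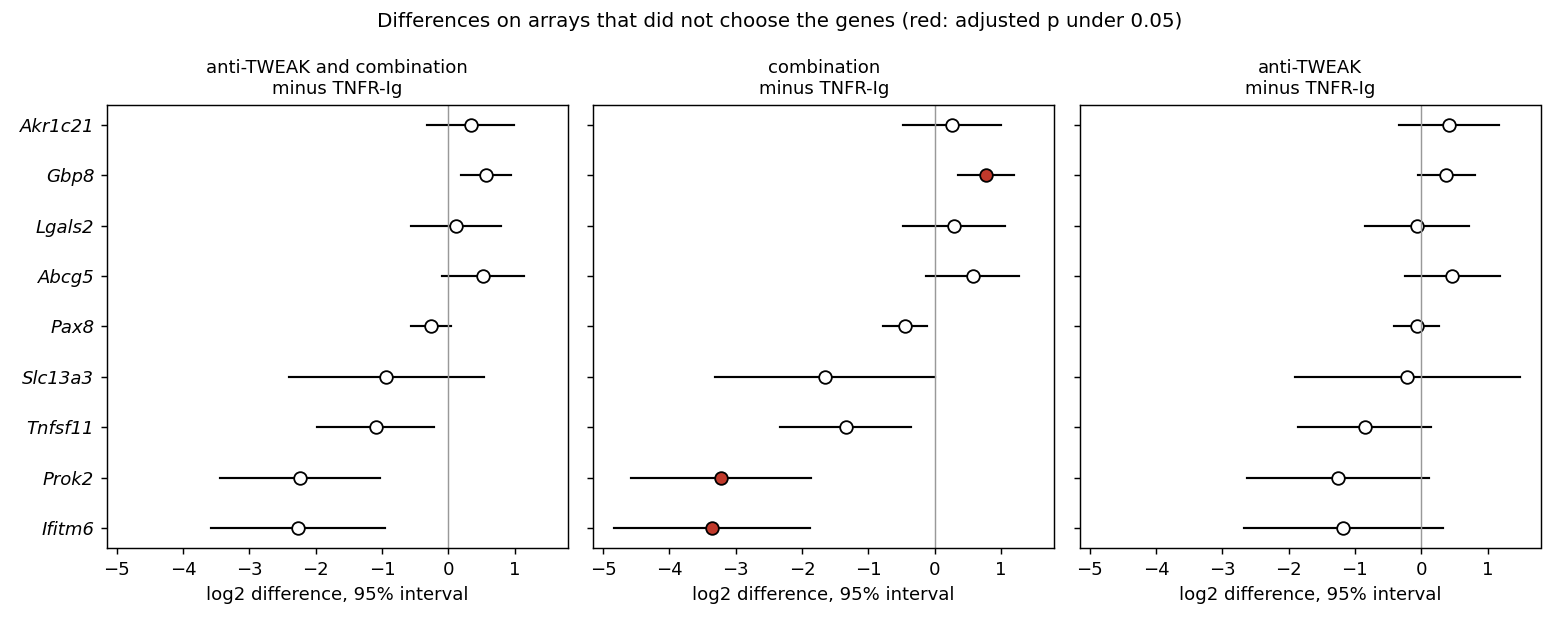
Log2 differences with 95% intervals (horizontal axis) for the 9 genes (rows) on arrays that did not choose them, in 3 panels for anti-TWEAK and combination together, combination, and anti-TWEAK, each minus TNFR-Ig, with red points for an adjusted p under 0.05. Prok2 at -3.22, Ifitm6 at -3.36 and Gbp8 at 0.77 are the red points, all in the combination panel.

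Anti-TWEAK alone against TNFR-Ig gave 0 calls among the 9 genes and 0 among all genes in limma, where 405 genes had an unadjusted p under 0.05. In experiment 10 alone Prok2 at -2.98 (adjusted p = 0.02199, limma) and Tnfsf11 at -2.16 (adjusted p = 0.03016, limma) passed, beside 2.35% of all genes, while in experiment 7 alone they stood at 0.20 and 0.28. Over both experiments Prok2 stood at -1.25 (interval -2.63 to 0.12), Ifitm6 at -1.18 (interval -2.68 to 0.32), Tnfsf11 at -0.85 (interval -1.86 to 0.16) and Slc13a3 at -0.21 (interval -1.90 to 1.48). Gbp8 was at 0.38 (interval -0.053 to 0.81). The combination against anti-TWEAK called 0 of the 9 genes, beside 0.00798% of all genes. There Ifitm6 stood at -2.18 ± 0.70 (SE, adjusted p = 0.1736, limma) and Prok2 at -1.96 ± 0.65 (adjusted p = 0.1765, limma), so a difference between the arms with and without TNFR-Ig was not established in this fit. With array weights Ifitm6 passed, at -2.70 (adjusted p = 0.02575, limma).

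Comparisons with untreated TNBS mice share those 8 mice with the contrast that chose the genes and are given side by side only. Prok2 stood at -2.45 with control IgG, -2.41 with anti-TWEAK, -4.37 with the combination and -1.14 with TNFR-Ig, each minus untreated. For Ifitm6 the differences were -2.52, -2.25, -4.43 and -1.08 in the same order. Tnfsf11 gave -2.65, -2.37, -2.87 and -1.54, and Slc13a3 gave -3.59, -1.65, -3.08 and -1.42. Among the higher genes, Akr1c21 gave 2.06, 1.18, 1.03 and 0.78, Gbp8 gave 1.46, 1.27, 1.67 and 0.89, and Pax8 gave 1.22, 1.01, 0.65 and 1.10. For TNFR-Ig minus untreated, Abcg5 stood at 0.36 and Lgals2 at 0.78. Since the genes were chosen for untreated mice that stood apart from control IgG mice, nothing is read from the side on which the other groups lay.

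Markers of neutrophils moved with Prok2 and Ifitm6. In the combination against TNFR-Ig, 9 of 11 tested neutrophil markers fell and 0 rose, with a list median of -2.35 against -0.0029 over all genes. Mmp8, a collagenase of neutrophil granules, fell by 4.43, Stfa2l1 fell by 3.38, the formyl peptide receptor Fpr2 fell by 3.13 and the chemokine receptor Cxcr2 fell by 2.73. The 2 that did not pass were Ngp at -2.86 and Ltf at 0.87. The mean level of the neutrophil list ranged from 4.29 to 9.16 in combination mice, 7.48 to 9.75 in TNFR-Ig mice and 2.65 to 3.89 in naive mice. Of the neutrophil markers 1, Camp, was too dim to test. Macrophage markers fell in 6 of 14 cases and rose in 0, with a list median of -0.53. Msr1, a scavenger receptor, fell by 1.07, Fcgr1 by 0.99, Cd68 by 0.96 and the integrin Itgam by 0.90. The part of these markers in the Prok2 and Ifitm6 results was not tested. In whole colon, fewer cells of a type and less RNA per cell cannot be told apart.

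Receptors for IgG fell as well. Of 6 Fc receptor genes, 5 fell in the combination against TNFR-Ig, with a list median of -0.90: the activating Fcgr4 by 1.12, Fcgr1 by 0.99 and Fcgr3 by 0.94, their signalling chain Fcer1g by 0.86, and the inhibitory Fcgr2b by 0.64. Fcgrt, the receptor that recycles IgG, stood at 0.13 and did not pass. With anti-TWEAK and combination averaged against TNFR-Ig, 0 of the 6 passed and the median was -0.62. The other Ifitm genes fell less than Ifitm6: Ifitm1 by 0.97, Ifitm3 by 0.28 and Ifitm2 by 0.27, which are all 3 of the family that were bright enough to test. The receptors of prokineticin 2 gave no test, since Prokr2 lay at the floor on every array and Prokr1 was too dim.

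For anti-TWEAK and combination mice together against TNFR-Ig mice, the 4 lower genes had larger differences in experiment 10 than in experiment 7. Within experiment 10 this comparison called 4 of the 9 genes, beside 8.13% of all genes (3.08% higher, 5.05% lower). Ifitm6 fell by 3.62 (adjusted p = 0.005212, limma), Prok2 fell by 3.27 (adjusted p = 0.001428, limma) and Tnfsf11 fell by 2.00 (adjusted p = 0.006581, limma). Gbp8 rose by 0.75 (adjusted p = 0.04694, limma). Slc13a3 stood at -2.74 (adjusted p = 0.05471, limma). In experiment 7 the same comparison called 0 genes of 12534. There Prok2 was at -1.32, Ifitm6 at -1.03, Tnfsf11 at -0.28 and Gbp8 at 0.43, and Slc13a3 had the other sign at 0.74.

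The difference between the experiments was itself tested and did not pass for any of the 9 genes, beside 0.0479% of all genes (0.0399% lower). Slc13a3 had the largest difference between experiments, -3.48 (interval -6.27 to -0.69, adjusted p = 0.2789, limma), followed by Ifitm6 at -2.59 (adjusted p = 0.3623, limma), Prok2 at -1.95 and Tnfsf11 at -1.72. The mean level of the neutrophil markers was 7.29 ± 1.58 (SD) in anti-TWEAK, 6.28 ± 1.71 in combination and 9.01 ± 0.72 in TNFR-Ig mice of experiment 10. In experiment 7 it was 8.99 ± 1.78, 7.17 ± 1.52 and 8.67 ± 0.90 in these groups. Of these 3 groups the largest gap between experiments was in anti-TWEAK mice. It was not tested, nor was the part of these markers in the values of the 9 genes.

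**Figure D3:**
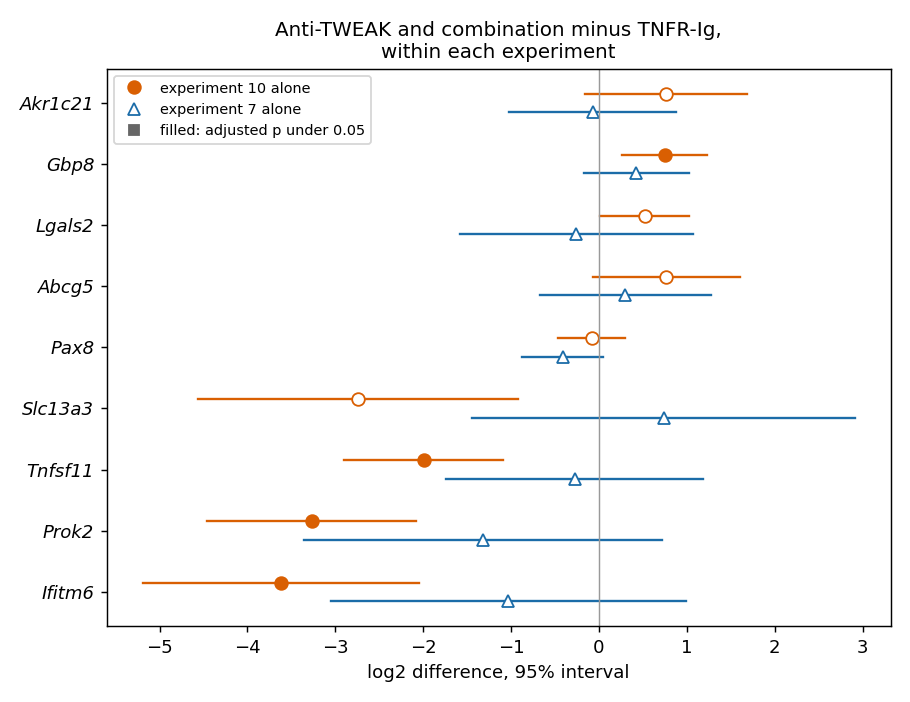
Log2 difference with 95% interval (horizontal axis) of anti-TWEAK and combination mice together minus TNFR-Ig mice for each of the 9 genes (rows), in experiment 10 (orange circles) and experiment 7 (blue triangles), filled where the adjusted p was under 0.05. Ifitm6, Prok2, Tnfsf11 and Gbp8 are filled in experiment 10, and Slc13a3 lies at -2.74 in experiment 10 and at 0.74 in experiment 7.

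Tnfsf11 encodes RANKL, the cytokine that drives osteoclasts, lymph node formation and the M cells over gut lymphoid follicles. Its lowest, median and highest levels were 3.94, 4.91 and 7.12 with control IgG, 3.15, 4.81 and 8.55 with anti-TWEAK, and 2.82, 4.54 and 7.15 with the combination. They were 4.89, 6.02 and 8.20 with TNFR-Ig, 4.89, 7.73 and 9.29 in untreated TNBS mice, and 2.25, 3.25 and 5.00 in naive mice. Anti-TWEAK mice of experiment 7 averaged 6.09 and those of experiment 10 averaged 4.31. By mean, untreated TNBS mice exceeded TNFR-Ig mice by more than their pooled SD, and the combination mean exceeded the naive mean by more than theirs. The TNFR-Ig, anti-TWEAK, control IgG and combination means each lay within the pooled SD of the next. The value 4.89 recurs in untreated TNBS, TNFR-Ig and combination mice, and the second Tnfsf11 probe set lay at the floor. The RANKL pathway gave 0 of 9 calls in the combination against TNFR-Ig, with a median of 0.054. The receptor Tnfrsf11a, known as RANK, stood at 0.054, the decoy receptor Tnfrsf11b at 0.26, and Ccl20, a chemokine of the follicle epithelium, at 1.05 (adjusted p = 0.07262, limma).

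Slc13a3 encodes a sodium-coupled carrier of succinate and other dicarboxylates, best known from the kidney. It ranged from 3.49 to 8.28 with control IgG (median 5.46), 3.65 to 11.16 with anti-TWEAK (median 7.68) and 3.73 to 10.52 with the combination (median 5.77). In TNFR-Ig mice it ranged from 3.94 to 11.38 (median 7.44), in untreated TNBS mice from 5.10 to 11.58 (median 9.59) and in naive mice from 3.0 to 3.97. Each colitic group overlaps the others, and only the control IgG mean exceeded the next mean below it, that of naive mice, by more than the pooled SD. The probe set is of a type that may pick up related transcripts. A second Slc13a3 probe set, with a mean level of 3.19, gave -0.51 for anti-TWEAK and combination against TNFR-Ig where the first gave -0.93, and the remaining pair lay at the floor. Of the kidney markers, 9 of the 10 measured were at the floor on every array. The remaining marker, Slc5a2, had a mean level of 9.69 and did not pass in the combination against TNFR-Ig.

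Gbp8 belongs to the guanylate-binding proteins, GTPases induced by interferon gamma that act against intracellular microbes. Its lowest, median and highest levels were 5.42, 6.66 and 8.19 with control IgG, 5.57, 6.63 and 7.81 with anti-TWEAK, and 6.07, 7.11 and 8.15 with the combination. They were 5.43, 6.47 and 6.73 with TNFR-Ig, 3.68, 5.02 and 7.71 in untreated TNBS mice, and 5.84, 6.26 and 7.11 in naive mice. The TNFR-Ig mice formed a narrow band, and most combination mice lay above its highest value. Part of that narrowness is a repeated value: 6.55 recurs in TNFR-Ig mice 4, 5 and 8 and in anti-TWEAK mouse 7 of experiment 10. Other interferon-induced genes of a list of GTPases and interferon gamma targets gave 0 of 13 calls in the combination against TNFR-Ig, with a median of 0.14. Gbp3 stood at 0.56, Gbp2 at 0.44 and Gbp6 at 0.39, none of which passed. With anti-TWEAK and combination averaged against TNFR-Ig, the list median was 0.30, 0 of 13 passed and all 13 had a positive sign.

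Like Tnfsf11 and Slc13a3, the remaining 4 genes passed in no comparison with TNFR-Ig in the main model over both experiments. Akr1c21, a hydroxysteroid dehydrogenase abundant in mouse kidney, had lowest, median and highest levels of 3.50, 5.30 and 8.08 with control IgG, 2.85, 4.47 and 6.29 with anti-TWEAK, and 2.96, 4.33 and 6.25 with the combination. It had 2.71, 4.44 and 6.11 with TNFR-Ig, 2.71, 3.57 and 4.23 in untreated TNBS mice, and 2.85, 3.39 and 4.03 in naive mice. Untreated and naive mice stayed within a narrow low range, and treated mice of every kind reached above it. Control IgG and untreated mice chose this gene, so that is a description and nothing is read from it. No Akr1c relative passed among the 5 tested in the combination against TNFR-Ig.

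Abcg5 forms with Abcg8 the pump that returns sterols from the enterocyte to the gut lumen. It ranged from 6.27 to 8.82 with control IgG (median 7.60), 4.28 to 8.66 with anti-TWEAK (median 7.36) and 5.72 to 8.06 with the combination (median 7.23). In TNFR-Ig mice it ranged from 5.19 to 8.70 (median 6.64), in untreated TNBS mice from 3.0 to 8.13 (median 6.48) and in naive mice from 5.94 to 8.05 (median 7.32). The control IgG and naive means were the highest, and each group mean lay within the pooled SD of its neighbour. Sterol transport and synthesis genes gave 0 of 9 calls in the combination against TNFR-Ig, with Abca1, a cholesterol exporter, at -0.41 (adjusted p = 0.0617, limma). The partner gene Abcg8 lay at the floor on every array and gave no test.

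Lgals2 encodes galectin-2, a lectin of the gut epithelium that binds galactose-bearing sugars. Its lowest, median and highest levels were 7.78, 8.52 and 9.79 with control IgG, 5.31, 8.29 and 9.48 with anti-TWEAK, and 4.17, 8.60 and 9.91 with the combination. They were 6.30, 8.20 and 9.66 with TNFR-Ig, 6.10, 7.43 and 8.71 in untreated TNBS mice, and 6.17, 7.43 and 7.77 in naive mice. The treated groups overlap almost wholly. The lowest combination value belongs to mouse 7 of experiment 7, 1 of the arrays with the other run prefix, and without both of those arrays the combination minus TNFR-Ig difference was 0.53 instead of 0.29. A second Lgals2 probe set gave 0.15 for anti-TWEAK and combination against TNFR-Ig, where the first gave 0.11.

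Pax8, a transcription factor of thyroid and kidney development, was dim throughout. Its lowest, median and highest levels were 4.13, 5.20 and 6.07 with control IgG, 4.37, 4.90 and 5.74 with anti-TWEAK, and 3.85, 4.57 and 5.53 with the combination. They were 4.20, 5.12 and 5.94 with TNFR-Ig, 2.41, 4.04 and 4.90 in untreated TNBS mice, and 4.49, 4.66 and 4.90 in naive mice. The combination mean exceeded that of untreated TNBS mice, the next below it, by more than the pooled SD, and the other neighbours in the order did not differ by that much. The value 4.90 recurs on many arrays of different groups, and the second Pax8 probe set lay at the floor.

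All 4 genes on the lower side were higher in treated colitis than in naive mice. With anti-TWEAK, combination and TNFR-Ig mice together against naive mice, 6 of the 9 genes rose and 0 fell, beside 42.4% of all genes (24% higher, 18.4% lower). Ifitm6 rose by 4.21, an 18.5-fold difference (SE 0.80, adjusted p = 4.679e-05, limma). Slc13a3 rose by 3.47 (adjusted p = 0.001876, limma), Tnfsf11 by 1.75 (adjusted p = 0.007503, limma) and Prok2 by 2.00 over naive mice at the floor (adjusted p = 0.02487, limma). On the higher side, Lgals2 rose by 1.13 and Akr1c21 by 1.10, while Gbp8 at 0.53 (adjusted p = 0.05624, limma), Pax8 at 0.29 and Abcg5 at 0.21 did not pass. The Lgals2 call was lost without the experiment term (0.90, adjusted p = 0.05355, limma). Naive mice were in experiment 10 only. Within it Gbp8 also passed, at 0.54 (adjusted p = 0.02572, limma), with 50.8% of all genes called.

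The families of Akr1c21 and Slc13a3 went the other way in colitis. All 5 tested Akr1c relatives fell, with a median of -0.29, and both tested Slc13 relatives fell, Slc13a1 by 1.04. Neutrophil markers rose in 10 of 11 cases, macrophage markers in 13 of 14 and Fc receptors in 5 of 6. The interferon list rose in 9 of 13 cases, and colonocyte markers rose in 1 and fell in 6 of 13.

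Among the 64 TNBS mice, after the mean of each group within each experiment was removed, the 4 lower genes varied together. Pearson's r was 0.86 between Prok2 and Ifitm6, 0.74 between Slc13a3 and Ifitm6, 0.63 between Slc13a3 and Prok2 and 0.63 between Tnfsf11 and Ifitm6. The lowest r among these 4 was 0.48, between Slc13a3 and Tnfsf11. The 5 higher genes were less alike, with r between 0.062 for Gbp8 and Pax8 and 0.37 for Akr1c21 and Lgals2. Across the sides, Lgals2 and Slc13a3 gave -0.57 and Gbp8 and Slc13a3 -0.50. These values describe mice that share array processing and the make-up of the tissue piece, and carry no test.

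**Figure D4:**
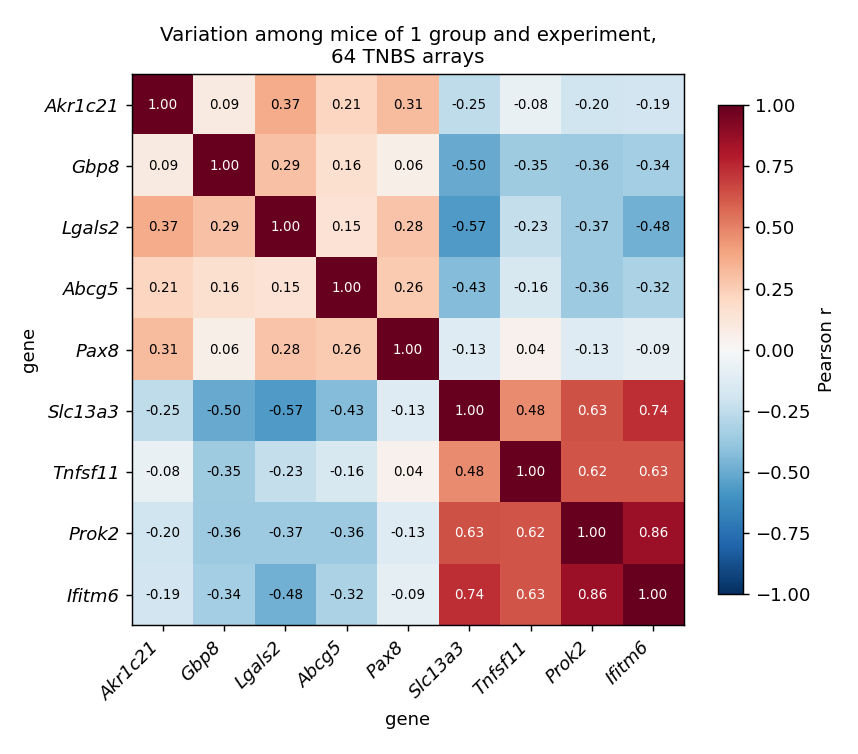
Pearson's r between each pair of the 9 genes (rows and columns, colour scale from -1 to 1) over 64 TNBS arrays with the mean of each group and experiment removed. The 4 genes at the lower right (Slc13a3, Tnfsf11, Prok2 and Ifitm6) form a block with r from 0.48 to 0.86.

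The genes most like each member over the same 64 arrays were read from the whole table. Prok2 was closest to Mmp8 (r = 0.93), Samsn1 (0.91) and Pygl (0.89). Ifitm6 was closest to Pirb (0.96), Alox5ap (0.96) and Mmp8 (0.95). Slc13a3 was closest to Clec4a2 (0.88), and Tnfsf11 to Il1r1 and Has2 (both 0.82). Mmp8 therefore appeared beside both Prok2 and Ifitm6. Gbp8 was closest to Psmb9 (0.83), Gbp3 (0.81) and Gbp2 (0.79), and Lgals2 to Coa3 (0.82). Abcg5 was closest to Lsr (0.68) and Srebf1 (0.67), Akr1c21 to Mcm7 (0.65) and Pax8 to Ttll5 (0.59). Mmp8 encodes a collagenase of neutrophil granules, Psmb9 an interferon-induced subunit of the proteasome, and Srebf1 a regulator of lipid synthesis.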

How the data were processed

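The deposited table holds log2 values of 45101 probe sets on 72 arrays, normalised by the authors. The submitters' processing notes name R 2.11.1, limma 3.4.5, GCRMA and RMA, without saying which step made the deposited values. Of the probe sets, 34945 had 1 gene symbol, 932 several and 9160 none, and 64 were controls. A filter at the 40th percentile of mean level (2.419) kept 12534 genes, with all 9 described here among them. No 2 arrays were identical.

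The main model was limma 3.58.1 in R 4.3.3 on 49 arrays, with a term for the experiment, empirical Bayes moderation, 2-sided tests and Benjamini-Hochberg adjustment over all genes tested. Differences involving control IgG or untreated TNBS mice came from a fit of all 72 arrays and carry no test. The code was checked on simulated data. The genes, the gene lists and the comparisons were chosen with earlier results of these data known. Named genes were the 9, the 3 most correlated with each, and up to 4 called genes of a list by size of change. Genes named beyond these were chosen after their values were seen. Alternatives covered filter, arrays, terms, normalization, weights and single arrays left out.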

Additional observations from a re-analysis of the deposited data

Results flagged for a closer look

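In 6 of 99 sets of mice from 1 group and experiment (6.06%), the highest or lowest value of 1 of the 9 genes stood apart from the rest. Chance alone flags about 1 in 20. Akr1c21 was high at 6.29 in anti-TWEAK mouse 1 of experiment 7, where the next was 4.97. Gbp8 was low at 5.42 in control IgG mouse 7 of experiment 7, where the next was 6.19. Lgals2 was high at 9.76 in control IgG mouse 4 of experiment 7, with the next at 8.70. Lgals2 was low at 4.17 in combination mouse 7 of experiment 7, with the next at 8.05. Pax8 was low at 2.41 in untreated TNBS mouse 2 of experiment 10, with the next at 3.89, and untreated mice entered the choice of the genes. Slc13a3 was low at 3.0 in naive mouse 2, with the next at 3.53.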

How the results depend on the processing

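Counts of genes called moved most. For anti-TWEAK and combination together against TNFR-Ig the count was 2, and it was 1 without the filter, 5 with all 72 arrays, 1 without naive arrays, 0 without the experiment term, 8 after quantile normalization, 409 with array weights, 5 with trend and robust moderation, 1 without the array with contradictory labels and 13 without the 2 arrays of the other run. In experiment 7 it was 0 and in experiment 10 it was 1019, and leaving out 1 array gave 1 to 57. For the combination against TNFR-Ig the count of 751 became 443 without naive arrays, 3 in experiment 7 and 1997 with array weights. Leaving out 1 array, an alternative chosen after seeing the data, gave 400 (without TNFR-Ig mouse 6 of experiment 10) to 1247 (without combination mouse 1 of experiment 7). It also gave 450 without combination mouse 6 and 477 without TNFR-Ig mouse 2 of experiment 7, and 1175 without combination mouse 2 of experiment 10. Anti-TWEAK against TNFR-Ig called 295 in experiment 10 instead of 0. The combination against anti-TWEAK called 1, which became 0 with all 72 arrays, without naive arrays, without the experiment term, in either experiment, with trend and robust moderation and without the other run, and 259 with array weights. Colitis against naive called 9114 of the 34945 probe sets with 1 gene symbol, tested without the filter, instead of 5320 of 12534 genes.

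Replicate numbers did not pair the mice: the correlation of deviations over same-numbered mice had a median of -0.00498 over 132 pairs, and 48 were over 0.1. Over differently numbered mice the median was 0.0071 over 921 pairs, and 334 were over 0.1. With the replicate block the counts were 0 for both antibody groups against TNFR-Ig, 281 for the combination against TNFR-Ig and 6 for the combination against anti-TWEAK, and Lgals2 became -0.011.

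For anti-TWEAK and combination together against TNFR-Ig, experiment 7 turned Lgals2 to -0.26, Slc13a3 to 0.74 and Akr1c21 to -0.071. In experiment 10 Gbp8 at 0.75, Tnfsf11 at -2.00, Prok2 at -3.27 and Ifitm6 at -3.62 passed. Array weights brought Prok2 at -2.24 and Ifitm6 at -2.46 past the threshold (adjusted p = 0.02519 and 0.02078, limma). Prok2 ranged from -2.66 to -2.07 with 1 array left out and passed without TNFR-Ig mouse 5 or 7 of experiment 7. Lgals2 ranged from -0.041 to 0.28, turning sign without TNFR-Ig mouse 1 of experiment 7. Other turned signs were Abcg5 against naive at -0.31 without the experiment term, Akr1c21 at -0.27 in the combination against TNFR-Ig in experiment 7, and, for anti-TWEAK against TNFR-Ig in experiment 7, Tnfsf11 at 0.28, Prok2 at 0.20, Slc13a3 at 1.85 and Ifitm6 at 0.46. In experiment 10 anti-TWEAK against TNFR-Ig turned Lgals2 to 0.50 and Pax8 to 0.24, and the combination against anti-TWEAK turned Tnfsf11 to 0.32, Abcg5 to -0.14 and Akr1c21 to 0.11. In the combination against TNFR-Ig, Tnfsf11 passed in experiment 10 (-1.83, adjusted p = 0.02574, limma), with array weights (-1.54, adjusted p = 0.02454, limma) and without combination mouse 1 of experiment 7 (-1.48). Pax8 passed with array weights (-0.49, adjusted p = 0.03624, limma), without TNFR-Ig mouse 7 or combination mouse 1 of experiment 7 and without TNFR-Ig mouse 8 of experiment 10, at -0.53 to -0.52. Gbp8 against naive passed with the replicate block (0.57) and with array weights (0.44). The causes were not tested. In the combination against TNFR-Ig, Prok2, Ifitm6 and Gbp8 passed in all 41 fits with 1 array left out. None of the 3 passed in experiment 7 alone, nor Gbp8 in experiment 10 alone (adjusted p = 0.0776, limma). The differences in experiment 7 were -2.83 for Prok2, -2.52 for Ifitm6 and 0.76 for Gbp8. In experiment 10 they were -3.56, -4.18 and 0.77 in the same order.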

Other observations

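Few genes of other cell types in the same tissue pieces passed the test between the arms that share TNFR-Ig. In the combination against TNFR-Ig, 1 of 13 colonocyte markers fell, with a list median of 0.029. Of 5 B and plasma cell markers 1 rose, all 5 had a positive sign and the list median was 0.75. The B and plasma cell gene that rose was Jchain, the joining chain of secreted immunoglobulin, by 0.30. Exocrine pancreas markers gave 0 calls of 9 with a median of 1.00 and a positive sign in all 9, and their mean level ranged from 4.46 to 13.48 in combination mice and from 4.17 to 13.02 in TNFR-Ig mice. Among relatives of the 9 genes, 0 of 7 galectins, 0 of 2 Slc13 genes and 0 of 2 Pax genes passed.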
